A study of Mus musculus with 10 samples.

Results

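Of the 21098 genes counted in gastrocnemius muscle (GAS) of diet-induced obese (DIO) mice, 10 were taken by symbol as surface, niche and identity genes of satellite cells, the resident stem cells of skeletal muscle. They are the transcription factor gene Pax7, the cadherin genes Cdh15 and Cdh2, the adhesion genes Ncam1 and Vcam1, the growth factor receptor gene Met, the heparan sulfate proteoglycan genes Sdc3 and Sdc4, the scavenger-type receptor gene Megf10 and the sialomucin gene Cd34. Of these, 8 passed the filter on low counts and were tested, whereas Cdh2 and Megf10 did not. All mice were male, wild type (WT) and C57BL/6J, had ad libitum access to the high-fat diet D12492i from 9 weeks of age, for 9 weeks before and also during the treatment, and are given as 30 weeks old in the design text. For 14 weeks they received one subcutaneous injection per week, either of 0.9% saline (CTRL, 5 libraries) or of 10 mg/kg of an antisense oligonucleotide against miR-22 (anti-miR-22 ASO, named RES-010 in the labels, 5 libraries). Both groups were obese, so no lean muscle is among the libraries, and saline rather than a non-targeting oligonucleotide was the control. Polyadenylated RNA of whole muscle was sequenced, so fewer satellite cells and less RNA per satellite cell cannot be told apart for any gene below.

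Satellite cells lie between the sarcolemma of a muscle fiber and the basal lamina that surrounds it. Pax7 marks them, M-cadherin (encoded by Cdh15) and N-cadherin (encoded by Cdh2) hold them to the fiber, and syndecans, integrins and the HGF receptor Met connect them to the matrix and to the growth factors that it stores. When muscle is injured or loses its nerve supply, these cells can leave quiescence, divide and fuse with fibers, and several of their surface genes are also expressed by the fibers or by vascular, neural and stromal cells.

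The ASO is directed against miR-22-3p, whose mature sequence (RefSeq table on GRCm38.p6, chr11:75463772-75463793, plus strand) is shown with its seed, bases 2 to 8, in capitals, because seed matches are the sequence feature by which a microRNA is known to recognize its targets.
mmu-miR-22-3p: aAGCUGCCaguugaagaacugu
The complement of this seed, GGCAGCT, was searched on the transcribed strand of the 3′UTR of each gene's canonical transcript, where it occurs in 2931 of 21095 genes (13.9%). Among the members it occurs in the 3′UTRs of Cdh15, Pax7 and Vcam1 and in none of the other 7. The matches are shown in capitals within 30 bases of the GRCm39 reference, Cdh15 at chr8:123593959-123593988 and chr8:123595659-123595688 on the plus strand, Pax7 at chr4:139465723-139465752 and chr4:139467171-139467200 on the minus strand, and Vcam1 at chr3:115904100-115904129 on the minus strand.
Cdh15, first match: ctggagcatggactaGGCAGCTagagggag
Cdh15, second match: agacaccatgaccaaGGCAGCTttcttata
Pax7, distal match: actcagccttgtttgGGCAGCTtgtaattt
Pax7, proximal match: gcataccatcttgctGGCAGCTggaaacct
Vcam1: tgttaatgttgactaGGCAGCTaaccagtg
A match is a description of the letters and not a measured site. Only the first Cdh15 match lies inside a counted segment, 162 bases before that segment's end.

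What was counted is read pairs on the last 500 bp or less of annotated 3′UTRs, and all segments of 1 gene were added up. The totals lay between 1606909 and 2116720 counts in CTRL and between 2239186 and 2632560 in the ASO libraries, so every ASO library was deeper than every CTRL library. Because miR-22 and Mir22hg, its host transcript, are not in the table, the labels could not be checked against the target of the ASO. Markers of mature fibers added up to between 54880 and 105896 CPM (counts normalised to library size, with the sizes scaled by edgeR's TMM) in CTRL and to between 110219 and 183720 CPM in the ASO group, although 6 of the 16 markers, among them Mb and Aldoa, are at 0 in all libraries. Some features of the libraries touch the members. CTRL replicate 3 had 3702 counts of the fat cell gene Lep, against 4 to 581 in the other CTRL libraries. In ASO replicate 4, the slow myosin gene Myh7 had 641 counts, against at most 100 counts in the other ASO libraries. The CTRL libraries had between 0 and 135 Myh7 counts, with the most in CTRL replicate 1. In addition, counts shifted within genes: over 1261 genes with counts on both, the median log2 ratio of counts on the most distal segment to counts on segments upstream of it was between -0.59 and 0.43 in CTRL and between 1.18 and 1.77 with the ASO, without overlap.

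Among the members, Cdh15 and Sdc4 were higher and Met and Cd34 were lower in the ASO group, and the other 4 tested members did not pass the test. Thus, 2 of 8 tested members were higher, where 11.8% of the 7813 tested genes were higher, and 2 of 8 were lower, where 17.4% of the tested genes were lower (edgeR's quasi-likelihood test, Benjamini-Hochberg adjusted p under 0.05). The levels of the 5 ASO libraries lay outside the range of the 5 CTRL libraries for Cdh15 on the higher side, as for 7.97% of tested genes, and for Met and Cd34 on the lower side, as for 13.4% of tested genes. Fold changes below are log2 differences from this fit with their standard errors (SE), and the exact permutation tests on log2(CPM + 1) are two-sided over the 252 ways to split the libraries, with 0.0079 as the smallest possible p. Both higher members had 0% of their counts upstream of their most distal segment. On most distal segments alone, with the library sizes of the summed counts, 917 of 5087 tested genes were higher and 204 were lower. With TMM scaling of these segments themselves, 232 were higher and 335 were lower.

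**Figure D1:**
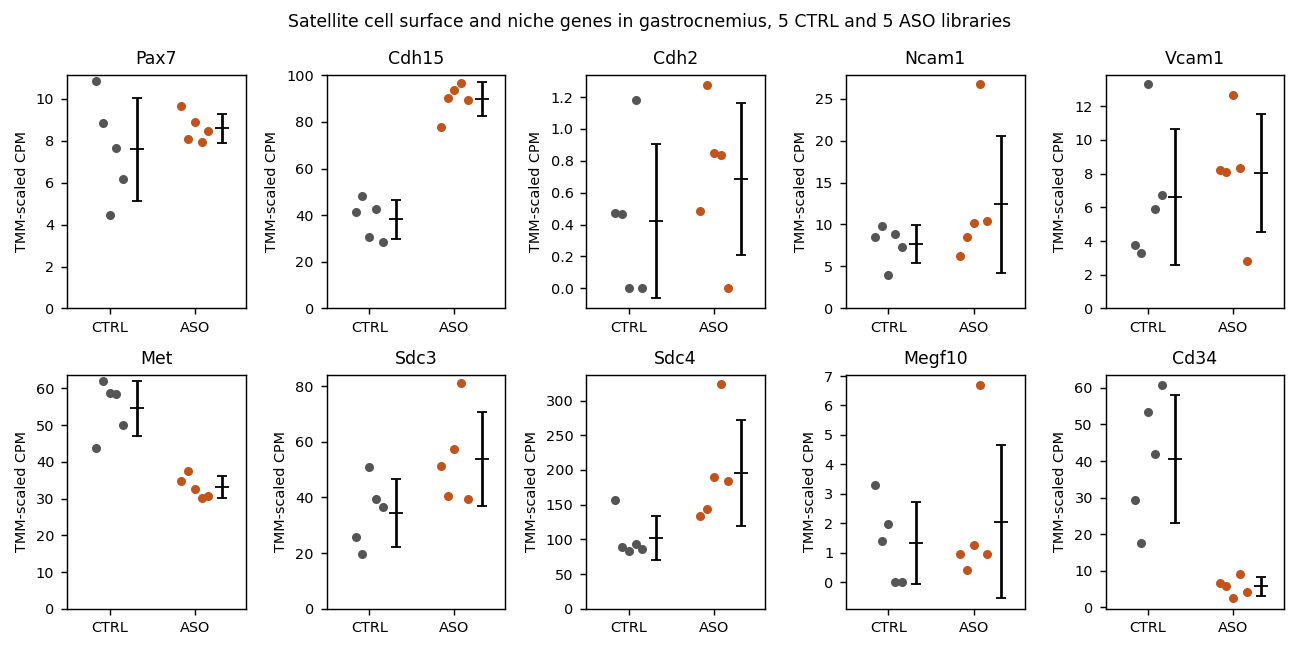
TMM-scaled CPM of the 10 members in each of the 5 CTRL (grey) and 5 ASO (orange) libraries, shown in the order of their replicate numbers, with the mean and SD of each group beside the points. The groups are apart for Cdh15, Met and Cd34, while 1 ASO library (replicate 4) lies above all others for Ncam1, Sdc3, Sdc4 and Megf10.

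Pax7, the transcription factor gene that defines satellite cells, was found at 10.8, 8.86, 4.45, 7.67 and 6.18 CPM in CTRL replicates 1 to 5 and at 9.66, 8.07, 8.88, 7.93 and 8.49 CPM in ASO replicates 1 to 5. All ASO values lay within the CTRL range and were closer to each other than the CTRL values. The mean was 7.60 ± 2.45 CPM (SD, n = 5) in CTRL and 8.61 ± 0.695 CPM (SD, n = 5) with the ASO, a log2 fold change of 0.17 (SE 0.26, 95% interval -0.34 to 0.68, adjusted p = 0.653 by edgeR's quasi-likelihood test, exact permutation p = 0.357). With 9 to 23 counts per library, a change of Pax7 inside this interval was not detectable. Most of its counts (88.4%) lie on the segment of the canonical transcript at chr4:139464373-139464872 (minus strand), and its other segment, 3614 bp upstream, had 2 to 4 counts in each CTRL library and 0 counts in 4 of 5 ASO libraries, with 4 counts in the other.

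Cdh15 encodes M-cadherin, the cadherin at the contact between a satellite cell and its fiber, and was the member with the largest increase. Its levels in the CTRL libraries were 41.5, 48.0, 30.6, 42.5 and 28.6 CPM, and those in the ASO libraries were 77.7, 90.1, 93.9, 96.9 and 89.6 CPM. Each ASO library was above each CTRL library. From 38.3 ± 8.28 to 89.6 ± 7.28 CPM (SD, n = 5 each), the mean rose 2.34-fold, with a log2 fold change of 1.23 (SE 0.16, adjusted p = 0.000333 by edgeR's quasi-likelihood test, exact permutation p = 0.0079). All counts of Cdh15 lie on a single segment at chr8:123593763-123594136 (plus strand) in its 3′UTR, so that counts could not shift between counted segments of this gene. The annotated gene extends beyond this segment, to position 123596048. Nothing was counted there, so a shift of coverage along this 3′UTR could not be seen. Leaving out each library in turn gave log2 fold changes between 1.14 and 1.32, and every other alternative gave between 0.95 and 1.31.

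Since both genes are read in the same library, their ratio does not depend on the scaling. Per library, the log2 ratio of Cdh15 to Pax7 counts was 1.91, 2.41, 2.72, 2.43 and 2.16 in CTRL and 2.98, 3.45, 3.37, 3.58 and 3.36 in the ASO group. The lowest ASO value was above the highest CTRL value, and the means of 2.33 ± 0.303 and 3.35 ± 0.223 (SD, n = 5) differed by 1.02 (exact permutation p = 0.0079, adjusted over 5 ratios p = 0.0198). Counted on the most distal segments alone, the difference was 0.71. Cdh15 thus increased relative to Pax7 in these libraries. Within-group deviations of log2 CPM over the 10 libraries were most like those of Cdh15 for Mga, Bcdin3d and Ppp5c (Pearson's r of 0.964, 0.925 and 0.901), and most like those of Pax7 for Vdac3, Slc25a15 and Churc1 (0.961, 0.950 and 0.945), which is given as a description. These values are the highest among the 7813 tested genes, and no background of r was computed.

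Myogenin and MyoD are the transcription factors that drive satellite cell progeny into differentiation, and both are also made by fibers that have lost their nerve. Counts of Myog were between 24 and 31 in the CTRL libraries and between 82 and 249 in the ASO libraries, and the gene was higher by 2.16 on the log2 scale (SE 0.29, adjusted p = 0.000368 by edgeR). Myod1 did not pass the test (log2 fold change 0.88, SE 0.32, adjusted p = 0.0515 by edgeR), although it did by DESeq2. Of the other genes of commitment and fusion, Mef2c, which encodes a further transcription factor of muscle genes, was lower by a log2 fold change of -3.04, with all of its counts on segments upstream of the most distal one. In all, 1 of the 10 tested genes of this list was higher and 1 was lower, with a median log2 fold change of 0.47 beside -0.03 for all tested genes. Among 15 proliferation genes only 3 passed the filter on low counts, and 0 passed the test by edgeR, DESeq2 or limma-voom or had an unadjusted p under 0.05 by edgeR.

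Ncam1, the gene of the neural cell adhesion molecule of satellite cells, neurons and denervated fibers, was found at 8.49, 9.79, 3.95, 8.85 and 7.30 CPM in CTRL and at 6.28, 8.50, 10.2, 26.7 and 10.4 CPM in the ASO group. Only ASO replicate 4 was far above the CTRL range, and the remaining ASO libraries overlapped with it or lay just beyond it. The log2 fold change was 0.69 (SE 0.40, adjusted p = 0.209 by edgeR's quasi-likelihood test, exact permutation p = 0.246), and without ASO replicate 4 it was 0.22. The same library had 75 counts of the embryonic myosin gene Myh3, against 0 to 8 in the other ASO libraries, beside the Myh7 counts given above, and their part in the Ncam1 value was not tested. Most Ncam1 counts (83.9%) come from the 3′ end of transcript Ncam1-201 at chr9:49428578-49428805 (minus strand), 15142 bp upstream of the canonical transcript's end. This segment on its own gave a log2 fold change of 0.71 (adjusted p = 0.172 by edgeR). The segment at the canonical end is 500 bp long, shares all but 12 bp with another Ncam1 segment and held 0 counts. How many Ncam1 transcripts end there could therefore not be read from these counts.

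Vcam1 encodes the cell adhesion molecule that binds the integrin alpha 4 beta 1 and is shared by satellite cells, endothelium and stromal cells. The CTRL libraries had 3.77, 3.26, 13.3, 5.90 and 6.74 CPM and the ASO libraries 8.21, 8.07, 12.7, 8.35 and 2.83 CPM. The highest value was in a CTRL library, replicate 3, and the lowest in an ASO library, replicate 5, and the groups overlapped. The log2 fold change of 0.29 was less than its standard error (SE 0.43, adjusted p = 0.649 by edgeR, exact permutation p = 0.492). Without CTRL replicate 3 it was 0.72 and again did not pass the test (adjusted p = 0.212 by edgeR). Itga4, the gene of the integrin chain that binds it, did not pass the test either, at a log2 fold change of 0.75 (adjusted p = 0.132 by edgeR).

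Syndecans carry heparan sulfate chains that bind HGF, FGFs and laminins at the surface of satellite cells. Sdc4 was counted at 157, 89.1, 83.5, 93.8 and 85.9 CPM in CTRL and at 134, 144, 190, 324 and 183 CPM with the ASO. Except for CTRL replicate 1, all CTRL libraries were below all ASO libraries, and ASO replicate 4 was the highest. The means of 102 ± 31.1 and 195 ± 76.2 CPM (SD, n = 5) gave a log2 fold change of 0.94 (SE 0.26, adjusted p = 0.0163 by edgeR's quasi-likelihood test, exact permutation p = 0.0238). Without ASO replicate 4 it was 0.69 and without CTRL replicate 1 it was 1.15, and Sdc4 passed the threshold in both cases. In the fit of the most distal segments alone, with their own TMM scaling, it was 0.65 and did not pass (adjusted p = 0.106 by edgeR), whereas with the library sizes of the summed counts it did.

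For Sdc3, which encodes the syndecan first known from nerve tissue and also found on satellite cells, the levels were 25.9, 19.6, 50.9, 39.5 and 36.5 CPM in CTRL and 51.2, 40.4, 57.5, 81.0 and 39.6 CPM in the ASO group. CTRL replicate 3 overlapped with the ASO group, whereas the other CTRL libraries were below it. The log2 fold change was 0.65 (SE 0.27, adjusted p = 0.0844 by edgeR's quasi-likelihood test, exact permutation p = 0.0397), so Sdc3 was not among the members called. It passed the threshold without CTRL replicate 3 (0.83, adjusted p = 0.0348 by edgeR), with upper-quartile scaling (0.74, adjusted p = 0.0469) and with a block for the replicate numbers (0.66, adjusted p = 0.0425). Of its segment at chr4:130553131-130553630 (plus strand), 222 bp overlap the gene Gm26716 on the opposite strand, and since no strand option is named for the counting, reads of both cannot be told apart there. Sdc4, at chr2:164266167-164266666 (minus strand), has no such overlap.

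A change of Sdc4 relative to Sdc3 was not detected: the log2 ratio of their counts was 1.59 ± 0.768 in CTRL and 1.83 ± 0.309 in the ASO group (SD, n = 5), a difference of 0.24 (exact permutation p = 0.524, adjusted over 5 ratios p = 0.524). Of 13 tested genes of a list of other heparan sulfate proteoglycans, the enzymes that build and edit their chains, and cytoplasmic partners of syndecans, 2 were higher (15.4%, beside 11.8% of all tested genes) and 1 was lower (7.69%, beside 17.4%). Hs6st1, a sulfotransferase gene, and Ext2, a gene of the chain polymerase, were higher (log2 fold changes 0.68 and 0.56, adjusted p = 0.00471 and 0.0125 by edgeR). The glypican gene Gpc4 was lower (-0.60, adjusted p = 0.00718 by edgeR), and the median of the tested genes was -0.11. Segments upstream of the most distal one held 98.8% of the Ext2 counts and 0% of those of Hs6st1 and Gpc4.

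**Figure D2:**
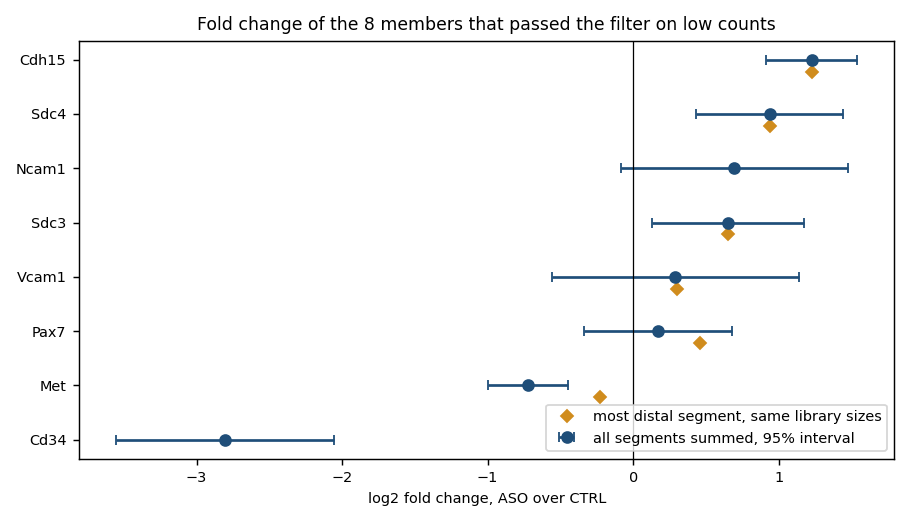
Log2 fold change (ASO over CTRL) of the 8 tested members from summed segments with 95% intervals (blue), and from the most distal segment alone with the same library sizes (orange diamonds). Met moves from -0.72 to -0.23 on its distal segment, and Cd34 and Ncam1 have no diamond because their distal segments hold too few counts to be tested.

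Met, the receptor of hepatocyte growth factor, through which satellite cells are activated, was lower in the ASO group. CTRL libraries had 43.9, 62.0, 58.8, 58.4 and 49.99 CPM and ASO libraries had 34.8, 37.4, 32.6, 30.1 and 30.7 CPM, all of them below the lowest CTRL library. The mean was 54.6 ± 7.48 CPM in CTRL and 33.1 ± 3.03 CPM with the ASO (SD, n = 5), a log2 fold change of -0.72 (SE 0.14, adjusted p = 0.00272 by edgeR's quasi-likelihood test, exact permutation p = 0.0079). Hgf, the gene of its ligand, had 0 to 5 counts per CTRL library and 0 or 1 counts per ASO library and could not be tested.

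The Met difference was not the same on its segments. On the most distal segment of the canonical transcript, at chr6:17573480-17573979 (plus strand), the levels of 29.7, 48.0, 39.5, 34.8 and 31.5 CPM in CTRL and 31.9, 35.7, 30.0, 28.8 and 30.2 CPM in the ASO group overlapped. Tested on its own among 10652 segments, the distal segment gave a log2 fold change of -0.19 (SE 0.17, adjusted p = 0.378 by edgeR). The other counted segment, the end of the transcript Met-202 at chr6:17571823-17572228, lies in the same 3′UTR 1751 bp upstream and had 30, 30, 39, 40 and 33 counts in CTRL and 6, 4, 6, 3 and 1 counts in the ASO group, a log2 fold change of -3.25 (SE 0.36, adjusted p = 4.9e-05 by edgeR). It took 32.3%, 22.6%, 32.8%, 40.4% and 37.1% of the Met counts in CTRL and 8.33%, 4.55%, 7.79%, 4.17% and 1.54% in the ASO group. The means of 33.0% ± 6.73 and 5.28% ± 2.80 (SD, n = 5) differed by -27.7 percentage points (exact permutation p = 0.0079), and no ASO library reached the CTRL range.

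Such a shift toward the distal segment was common. The log2 ratio of distal to upstream counts rose by 3.13 for Met and by a median of 1.42 over the 1261 genes, 8.17% of which rose by more than Met, and the groups did not overlap on the higher side for 52.4% of them. Whether Met transcripts end at a different place or are only covered differently was not tested. The canonical polyadenylation hexamers AATAAA and ATTAAA were searched on the transcribed strand in the last 50 bases of each segment, where 60.5% of all segments hold one. The distal segment of Met holds one at chr6:17573936-17573965, shown in capitals, and the last 50 bases of its upstream segment hold none.
Met, distal segment: tcatacagttgaAATAAAgtgacgtaacat

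Cd34 encodes a sialomucin of quiescent satellite cells that also marks endothelium, fibroadipogenic progenitors and other stromal cells. It had 29.2, 17.7, 53.4, 41.9 and 60.7 CPM in CTRL and 6.76, 5.95, 2.54, 9.18 and 4.24 CPM in the ASO group, and every ASO library was below every CTRL library. The CTRL mean of 40.6 ± 17.5 CPM was 7.08-fold above the ASO mean of 5.73 ± 2.52 CPM (SD, n = 5), with a log2 fold change of -2.80 (SE 0.38, adjusted p = 0.000415 by edgeR's quasi-likelihood test, exact permutation p = 0.0079). With a library left out, it was between -3.02 and -2.58.

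None of these Cd34 counts come from the end of its main transcripts. Both coding transcripts that end most distally have the same segment, chr1:194643088-194643587 (plus strand), and identical segments hold 0 counts in this table. The whole Cd34 value is the segment chr1:194640359-194640858, 2729 bp upstream, which closes the transcript Cd34-203, annotated for nonsense-mediated decay. Only 134 of its 500 bases lie in an exon of that transcript, which are coding bases in the canonical one, and the others lie in no exon of either. The last 50 bases of this upstream segment hold neither hexamer, while the distal segment without counts holds AATAAA at chr1:194643528-194643557 and ATTAAA at chr1:194643556-194643585, shown in capitals.
Cd34, distal segment, first hexamer: tattctcttctgAATAAAcgtgatgagtga
Cd34, distal segment, second hexamer: gaaaatgatgtaATTAAAttgatgatgaaa
In the same order of libraries as the Cd34 levels above, the median log2 ratios of distal to upstream counts were 0.33, 0.43, -0.07, -0.29 and -0.59 in CTRL and 1.18, 1.22, 1.77, 1.48 and 1.52 in the ASO group. The libraries with the lowest Cd34 level of each group had the highest ratio of that group, but the order was not kept throughout: CTRL replicate 3 had more Cd34 than CTRL replicate 4 at a higher ratio, and ASO replicate 4, not ASO replicate 1, had the highest ASO level. How much of the Cd34 difference this ratio accounts for was not tested.

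Cd34 was also set beside markers of the other cells that carry it. Of 16 endothelial markers, 13 were tested. Ly6c1 was lower by edgeR (log2 fold change -1.001, 94.9% of its counts on upstream segments). Of the tested markers, 1 was thus lower (7.69%, beside 17.4% of all tested genes) and 0 were higher. At an unadjusted p under 0.05, 2 were higher by edgeR, and 1 was called higher by DESeq2 and 0 by limma-voom, and their summed level was between 497 and 813 CPM in CTRL and between 461 and 1095 CPM with the ASO. The defining endothelial gene Pecam1 had 0 or 1 count per library, so that the ratios of Cd34 (difference of -2.23 on the log2 scale) and Vcam1 (0.84) to Pecam1, which were planned, have a denominator below the floor of 3 counts and are not read. Of 16 fibroadipogenic and fibroblast markers, 10 were tested and 2 were lower, namely Lum (-1.72, adjusted p = 0.00135 by edgeR) and Clec3b (-0.82, adjusted p = 0.0289 by edgeR), the summed level was between 728 and 2446 CPM in CTRL and between 348 and 1302 CPM with the ASO, and Ly6a, Dcn and Gsn are at 0. Lum and Clec3b had 0% of their counts on upstream segments. The part of endothelial, fibroadipogenic and fibroblast cells in the Cd34 difference was not tested.

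**Figure D3:**
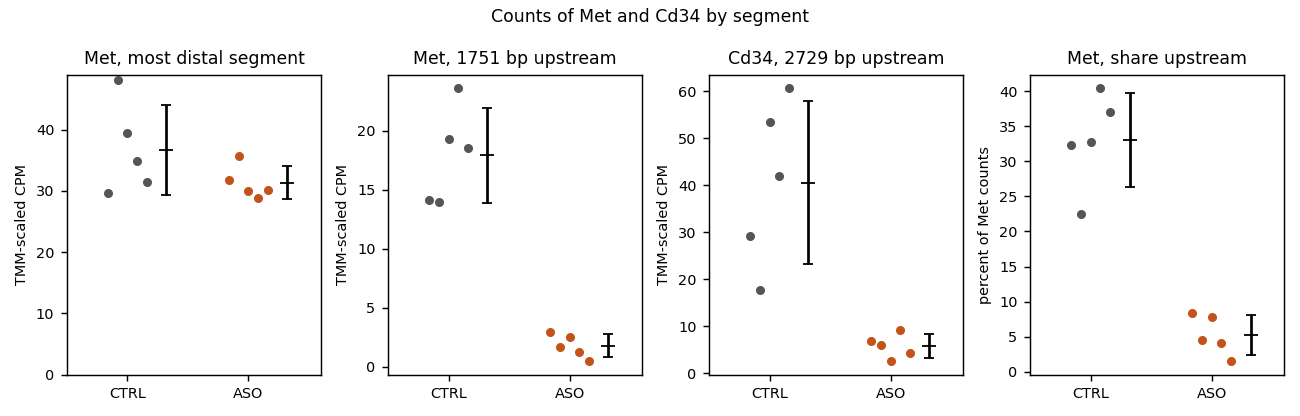
TMM-scaled CPM of the counted segments of Met and Cd34, and the percent of Met counts on its upstream segment, in 5 CTRL (grey) and 5 ASO (orange) libraries with the mean and SD. The distal Met segment overlaps between groups (36.7 ± 7.35 and 31.3 ± 2.68 CPM), whereas both upstream segments are lower in every ASO library.

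Megf10 encodes a receptor with EGF-like repeats that maintains satellite cells in an undifferentiated state. It was counted 7, 3, 4, 0 and 0 times in CTRL and 2, 1, 3, 16 and 2 times in the ASO group, so only ASO replicate 4 and CTRL replicates 1 and 3 exceeded 3 counts. Its mean was 1.34 ± 1.40 CPM in CTRL and 2.06 ± 2.60 CPM with the ASO (SD, n = 5), and a difference was not detected (exact permutation p = 0.611). Cdh2, the N-cadherin gene, had 1, 1, 0, 2 and 0 counts in CTRL and 1, 3, 2, 2 and 0 counts in the ASO group (exact permutation p = 0.349). No library exceeded 3 counts, so a change of Cdh2 was not detectable from these counts. The Cdh2 segments of 500 bp also overlap each other, with only 146 bp of each not shared, so its low counts need not mean low expression. The log2 ratio of Cdh15 to Cdh2 (difference of 0.75, exact permutation p = 0.270, adjusted over 5 ratios p = 0.337) is not read.

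Because segments differ in length, levels of different members can only be compared per kilobase of uniquely counted sequence. In CTRL the order was Sdc4 (204 CPM per kb), Cdh15 (102), Cd34 (81.2), Sdc3 (69.0), Met (57.8), Pax7 (12.4), Ncam1 (6.69), Vcam1 (6.60), Megf10 (2.67) and Cdh2 (1.45). Between neighbours in this order, the ranges over the 5 CTRL libraries were apart for Sdc4 above Cdh15 and for Met above Pax7, and overlapped for all other neighbours. On this scale, 5 surface genes were at 57.8 CPM per kb or more and 5 genes, Pax7 included, at 12.4 or less. The divisor also includes segments with few or no counts, and is 1147 bp for Ncam1, 1000 bp for Vcam1 and 611 bp for Pax7. Of the Ncam1 counts, 83.9% lie on 228 bp, and of the Vcam1 counts, 98.7% lie on 500 bp. The places of Ncam1 and Vcam1 relative to Pax7, and the bound of 12.4, therefore depend on the divisor. The place of Cd34 in this order rests only on its upstream segment, most of whose bases lie in no exon, since its distal ends hold 0 counts. In the ASO libraries, with the same divisor, Sdc4 (390 ± 152 CPM per kb) and Cdh15 (240 ± 19.5) were again the highest. Cd34 (11.5 ± 5.04) was on this scale at the level of Pax7 (14.1 ± 1.14) and Ncam1 (10.8 ± 7.12).

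**Figure D4:**
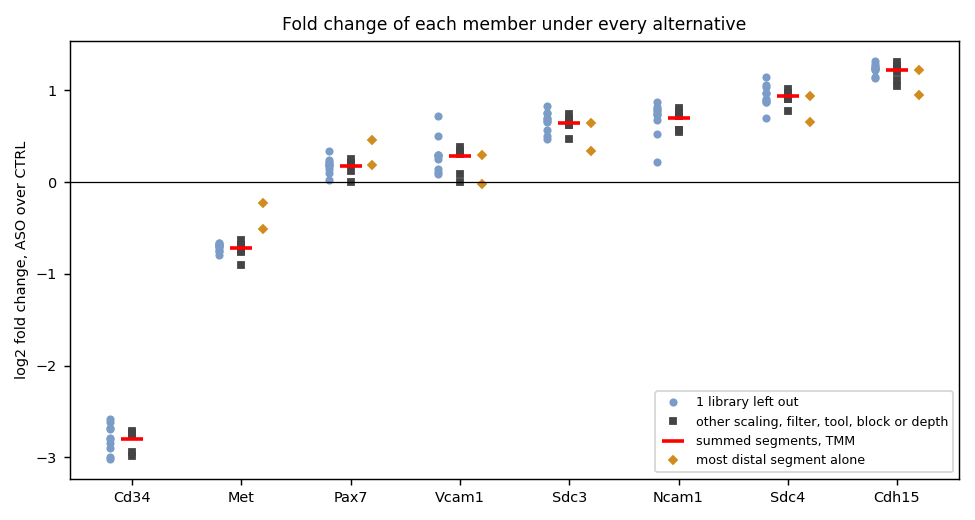
Log2 fold change (ASO over CTRL) of each tested member with summed segments and TMM (red bar), with 1 library left out (blue circles), with another scaling, filter, tool, block or depth (dark squares) and on the most distal segment alone (orange diamonds). Cdh15 stays between 0.95 and 1.32 and Cd34 between -3.02 and -2.58, whereas Met lies at -0.51 and -0.23 on its distal segment.

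The niche that these surface proteins bind to was described with a list of ligands and matrix genes. Of its 43 genes, 31 were tested, 4 were higher and 5 were lower (median log2 fold change -0.18). These shares of 12.9% and 16.1% were near those of all tested genes (11.8% and 17.4%). Those higher were Lama5 (1.36) and Lamb2 (0.60), which encode laminin chains of the basal lamina, Wnt4 (1.47), a Wnt ligand gene, and Jag2 (0.71), a Notch ligand gene. Lower were Lamc1 (-2.08), a further laminin chain gene, the fibronectin gene Fn1 (-2.29), the basal lamina genes Nid1 (-1.30) and Col4a1 (-1.19), and the growth factor gene Fgf1 (-1.84). All counts of Lamc1, Fn1, Col4a1 and Fgf1 came from segments upstream of the most distal one, as for Cd34, while Nid1 and the 4 higher genes had 0% of their counts there.

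Of 17 tested genes of cytoplasmic partners of the cadherins and other cell contact proteins, 1 was higher (5.88%, beside 11.8% of all tested genes) and 2 were lower (11.8%, beside 17.4%), with a median of 0.06. Rac1, a small GTPase gene, was higher (0.51, adjusted p = 0.0108 by edgeR), with 99.9% of its counts on upstream segments. Ctnnb1, the gene of beta-catenin, to which M-cadherin and N-cadherin bind, was lower (-1.80, adjusted p = 0.000366 by edgeR), with 100% of its counts on upstream segments. The membrane metalloprotease gene Mmp14 was lower too (-1.06, adjusted p = 0.0381 by edgeR, 99.7% upstream).

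Other genes of the satellite cell state were tested in 19 of 30 cases. By edgeR 0 were higher, also at an unadjusted p under 0.05 and by DESeq2 and limma-voom, and 5 were lower (26.3%, beside 17.4% of all tested genes). The median over the tested genes of the list was 0.05 on the log2 scale. The lower genes were the cell cycle inhibitor gene Cdkn1b (-1.15), the Notch pathway genes Hes1 (-1.01) and Rbpj (-1.50), the activin antagonist gene Fst (-1.72) and the caveolin gene Cav1 (-2.03), which is also abundant in endothelial and fat cells. Counts of Cdkn1b and Rbpj came wholly from segments upstream of the most distal one, as did 99.9% of those of Cav1, 36.8% of those of Fst and 0% of those of Hes1. Among the quiescence genes of this list, Calcr and Spry1 are at 0 in all libraries, and Myf5 had 4 to 13 counts per CTRL library and 0 to 18 per ASO library and was not tested. The 0 counts of Calcr and Spry1 need not mean low expression, since the fiber genes Mb and Aldoa are at 0 as well.

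**Figure D5:**
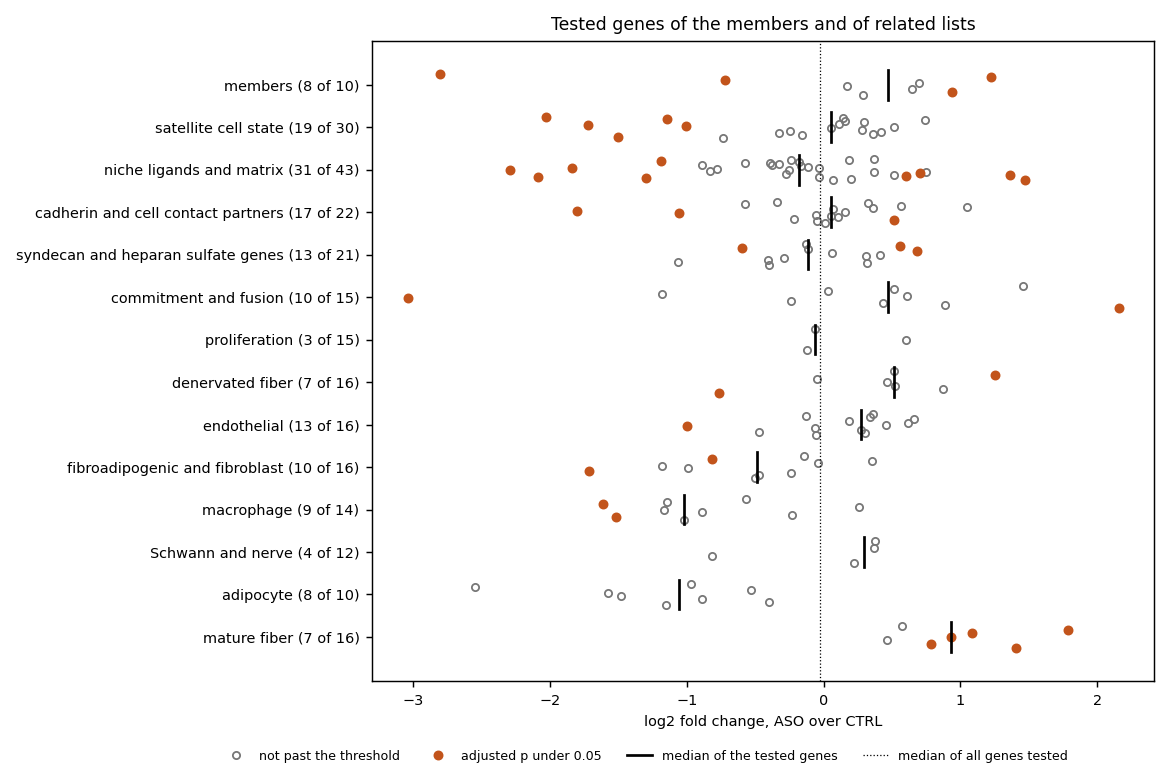
Log2 fold change (ASO over CTRL) of every tested gene of the members and of 13 related lists, with the number tested of the number listed. Filled points passed the threshold in edgeR's quasi-likelihood test, black bars are medians of the tested genes, and the dotted line is the median of all tested genes at -0.03. The 5 satellite cell state genes past the threshold have log2 fold changes between -2.03 and -1.01, and the other tested genes of that list did not pass.

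Several members are also expressed by cells other than satellite cells, and the markers of those were given the same description. Of 7 tested genes of denervated fibers, 1 was higher and 1 was lower (14.3% each, beside 11.8% and 17.4% of all tested genes), with a median of 0.52. The acetylcholine receptor gene Chrnb1 was higher (1.25, adjusted p = 0.00113 by edgeR) and the ubiquitin ligase gene Trim63 was lower (-0.77, adjusted p = 0.0192 by edgeR). Chrnb1 had 0% and Trim63 had 100% of its counts on upstream segments. Of 7 tested mature fiber genes, 5 were higher (Ttn, Actn3, Atp2a1, Ckm and Tnnc2, 71.4% beside 11.8% of all tested genes, median 0.93). The other 9 of the 16 genes of that list were not tested, among them the 6 at 0. Of the higher genes, Ttn had 100% and Ckm 97.6% of their counts on upstream segments, and Actn3, Atp2a1 and Tnnc2 had 0%. Schwann cell and nerve markers had 0 calls among 4 tested genes by edgeR, also at an unadjusted p under 0.05 and by DESeq2 and limma-voom, and summed to between 60.8 and 147 CPM in CTRL and between 56.3 and 256 CPM with the ASO. Of 9 tested macrophage markers, Mrc1 and C1qc were lower by edgeR (22.2%, beside 17.4% of all tested genes) and 0 by limma-voom (median -1.02). Both genes had 0% of their counts on upstream segments. The summed level of this list was between 309 and 1927 CPM in CTRL and between 86.3 and 648 CPM with the ASO. Of 8 tested adipocyte markers, 0 were called by edgeR, DESeq2 or limma-voom and 2 were lower at an unadjusted p under 0.05 by edgeR (median -1.06), and the sums ranged between 915 and 14385 CPM in CTRL and between 770 and 3887 CPM in the ASO group. The part of any of these cells in the values of the members was not tested.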

How the data were processed

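The authors deposited counts of read pairs, with no normalization, made with fastp, STAR (genome build GRCm39) and featureCounts on Gencode M25 and kept for the final 500 bp of 3′UTRs; their own comparison used DESeq2. Versions of STAR and featureCounts are not given in the sources used here, the parameters printed for featureCounts include no strand option, and 4 further columns that match no sample were not used. Of 52423 segments, 52361 were matched to GENCODE M39 on GRCm39 (the other 62 hold 0.0197% of the counts), and 11523 with coordinates identical to another segment hold 0 counts. Segment counts were summed per gene, and 7813 genes passed edgeR's filter by group. Testing used edgeR 4.0.16 in R 4.3.3 (TMM, quasi-likelihood test, Benjamini-Hochberg over all tested genes, threshold 0.05). Levels are TMM-scaled CPM. Segments were also tested singly (10652 tested). Count ratios used a pseudocount of 0.5. Coordinates and sequences are 1-based from the GRCm39 reference, and the miR-22 sequence is from RefSeq.

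Without the TMM scaling, totals of 1606909 to 2632560 counts make 3 counts, the floor, worth 1.14 to 1.87 CPM, which covers counting error only. The labels do not state that each library is a separate mouse, so p-values rest on the variation between these libraries, which need not be that between mice. Replicate numbers did not pair the groups (correlations of deviations from -0.43 to 0.16). The members and gene lists were chosen with earlier results of these data known, and 1 gene of a marker list is not reported here. Named are all members, up to 6 genes past the threshold per list by adjusted p, the 3 genes most like Pax7 and Cdh15, and Myog and Myod1; Itga4, Hgf, Pecam1, Myf5, library markers and genes at 0 were added after their values were seen. Alternatives were other scalings, filters, DESeq2 1.42.0, limma-voom (limma 3.58.1), a replicate block, left-out libraries, drawing down to the shallowest total and the distal segment alone. In data simulated for this comparison, edgeR recovered 72 of 100 genes changed by 1 and 96 of 100 changed by 2 on the log2 scale, with 9 false calls among 7940 tested genes. Every simulated gene had the same dispersion, and no counts shifted within genes. These numbers therefore do not describe members with few counts or with uneven libraries.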

Additional observations from a re-analysis of the deposited data

Results flagged for a closer look

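In 3 of the 30 groups of 5 libraries examined (10 members in 2 groups, and the 5 ratios), 1 library lay so far from its group that its gap to the nearest library exceeded 0.71 of the group's range, and chance gives about 1 in 20 groups. Ncam1 was at 26.7 CPM in ASO replicate 4, against 6.28 to 10.4 CPM in the other ASO libraries. Megf10 was at 6.68 CPM in the same library, against 0.425 to 1.27 CPM. Sdc4 was at 157 CPM in CTRL replicate 1, against 83.5 to 93.8 CPM in the other CTRL libraries.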

How the results depend on the processing

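On the most distal segment alone, where 6 members could be tested, 1 member (Cdh15) was higher and 0 were lower by edgeR: Sdc4 was at 0.65 (adjusted p = 0.106), Met at -0.51 (adjusted p = 0.0555) and Vcam1 turned to -0.018. TMM on these segments moved the median of the same genes by -0.28. With the library sizes of the summed counts, an alternative chosen after seeing the data, 0 members were lower and 2 were higher (Met -0.23, adjusted p = 0.309); at an unadjusted p under 0.05, 1 (Met) was lower in the first of these fits and 0 in the second. DESeq2 and limma-voom on the summed counts called 2 lower. Requiring at least 10 counts in every library left 4 members and 1 lower, since Cd34 failed the filter. All other fits had 2 lower members, and 2 or 3 higher ones, the third being Sdc3. Over all genes, 920 were higher and 1363 lower by edgeR, 528 and 1819 with total counts (median moved by -0.18), 1262 and 1206 with upper-quartile scaling, 232 and 335 of 5087 on distal segments alone, 917 and 204 on these with summed library sizes, and 662 and 1172 with the replicate block, which left the calls of the other members as they were. In a paired exact permutation test (sign flips), as the replicate block for ratios, Cdh15 to Pax7 (1.02) and Cd34 to Pecam1 (-2.23) reached p = 0.0625, the smallest that 5 pairs allow. Cdh15 to Cdh2 was 0.94 with a pseudocount of 1 (exact permutation p = 0.0159). For Ncam1, left-out libraries gave 0.22 to 0.88, for Vcam1 0.09 to 0.72, for Pax7 0.02 to 0.34 (0.0001 with total counts to 0.46 on the distal segment with summed library sizes) and for Met -0.79 to -0.67. The causes of these changes were not tested beyond the number of members that could be fitted.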
